A study of Mus musculus with 2 samples.

Results

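The stem-like cells of day 3 organoids were the 120 cells of the day 3 library, among 1863 in both libraries, with the highest mean log2 value over Lgr5, Ascl2, Axin2, Igfbp4, Gkn3, Rgcc and Ifitm3. They were set against the other 678 day 3 cells, and 1065 cells came from day 5. Single cells of mouse intestinal organoids had been captured in droplets, and transcripts were counted from their 3-prime ends with unique molecular identifiers (UMIs). One library came from day 3 and one from day 5, so there are no replicates, no difference could be tested, and each value below describes these 2 libraries. Per the labels, all organoids came from wild-type C57BL/6 mice aged 10 weeks and grew with EGF, Noggin and R-spondin. For the first 3 days they also received Wnt3a (as conditioned medium at 20%) and Y-27632, which blocks ROCK, at 10 µM. CHIR99021, which blocks GSK3B, was added at 3 µM for the first day. These additions were absent between day 3 and day 5, so day and medium cannot be told apart. The day 3 stem-like cells therefore stood in medium with added Wnt ligand, as did the cells they are compared with.

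Intestinal stem cells sit at the base of the crypt, between Paneth cells, and divide to renew the epithelium. They respond strongly to Wnt ligands. R-spondin binds the receptor LGR5 and its relatives and removes the ubiquitin ligases RNF43 and ZNRF3, which would otherwise clear Wnt receptors from the membrane. Stabilised beta-catenin then joins TCF factors on target genes. After injury, and in freshly seeded organoids, epithelial cells pass through a state with genes of the fetal gut, such as Clu and Ly6a, and with active YAP, before stem cells with Lgr5 are seen.

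Sp5 is shown first because it had the highest ratio among the Wnt target genes described below, and Axin2 and Gkn3 because they belong to the score. The stretches are the 250 bases before the start of each gene, on the gene's strand, from RefSeq on GRCm38.p6. Capitals mark matches on either strand to letters that TCF factors prefer, which are CTTTGAA and also CTTTGAT and also CTTTGTA and also CTTTGTT.
Sp5, chr2:70474673-70474922, plus strand: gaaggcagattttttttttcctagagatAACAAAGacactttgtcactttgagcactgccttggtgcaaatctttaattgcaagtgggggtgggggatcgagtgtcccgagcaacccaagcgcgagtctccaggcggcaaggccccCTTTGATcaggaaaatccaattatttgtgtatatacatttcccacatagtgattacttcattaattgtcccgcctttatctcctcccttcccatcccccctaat
Axin2, chr11:108920099-108920348, plus strand: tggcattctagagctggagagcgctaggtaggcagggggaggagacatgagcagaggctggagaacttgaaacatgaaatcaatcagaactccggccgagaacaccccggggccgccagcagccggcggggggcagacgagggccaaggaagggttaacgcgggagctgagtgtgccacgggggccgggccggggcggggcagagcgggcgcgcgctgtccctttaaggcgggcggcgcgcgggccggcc
Gkn3, chr6:87388936-87389185, minus strand: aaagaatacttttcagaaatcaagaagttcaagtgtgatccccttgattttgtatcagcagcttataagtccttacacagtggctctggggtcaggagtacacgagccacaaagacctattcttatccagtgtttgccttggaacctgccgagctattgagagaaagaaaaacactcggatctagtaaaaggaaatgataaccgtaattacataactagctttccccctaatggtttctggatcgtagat
Sp5 held 2 matches, the farther starting 222 bases before the gene. None was found in these windows of Axin2, Gkn3, Ascl2, Igfbp4, Rgcc and Ifitm3, the 6 score genes with a window in the table. A match stood in 4874 of all 32851 windows (14.8%) and in 12.3% of the 9410 genes tested at day 3 that have a window. Of those counted higher in stem-like cells 45 of 278 (16.2%) held one, and of those counted lower 105 of 800 (13.1%). A match is a run of letters and no measured binding.

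The 120 cells had scores of 1.06 to 2.76 with a median of 1.47, and the other cells 0 to 1.05 with a median of 0.244, on the authors' log2 scale. The 10 cells just inside the limit scored 1.06 to 1.09 and the 10 just outside 1.01 to 1.05, and 22 cells on each side lay within 0.1 of the limit. The group is thus the upper range of a continuous score. Ifitm3 made up 21.4% of the members' summed score, Rgcc 19.2% and Ascl2 7.21%. Of the members, 29 held a UMI of all 7 genes, 52 of 6, 29 of 5 and 10 of 4, against 1, 8, 23 and 65 of the 678 other cells. Depth was close on both sides, with a median of 32950 UMIs and 5022 genes per stem-like cell and 31930 UMIs and 4991 genes per other cell. Mitochondrial transcripts made up 4.62% and 5.52% of UMIs, and ribosomal protein transcripts 35.7% and 33.9%.

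The genes that chose the cells are described without a test. UMIs were summed over the cells of each side and scaled to counts per 1000000 (CPM), with Poisson 95% intervals for counting error only. Lgr5 (ENSMUSG00000020140), the R-spondin receptor, stood at 61.9 CPM (54.9 to 69.5) in stem-like cells and 7.28 CPM (6.24 to 8.44) in other cells. It gave 0 to 11 UMIs per stem-like cell with a median of 2, and 0 to 7 with a median of 0 in other cells. Rgcc (ENSMUSG00000022018), a regulator of the cell cycle, stood at 167 CPM (155 to 179) and 9.47 CPM (8.29 to 10.8), and Gkn3 (ENSMUSG00000030048), a secreted protein of the gastrokine family, at 93.3 CPM (84.7 to 103) and 6.12 CPM (5.18 to 7.19). These were the widest gaps, with log2 ratios of 4.14 and 3.93. Axin2 (ENSMUSG00000000142), a scaffold of the complex that degrades beta-catenin and a feedback target of Wnt, stood at 99.6 CPM (90.7 to 109) and 23.1 CPM (21.2 to 25.1), the narrowest gap with a log2 ratio of 2.11. Ascl2, a transcription factor of intestinal stem cells, stood at 35.3 and 5.42 CPM, Igfbp4, which binds insulin-like growth factors, at 104 and 19.5 CPM, and Ifitm3, an interferon-induced membrane protein, at 270.5 and 41.5 CPM. Per the annotation on GRCm38, Lgr5 lies on chromosome 10 from 115450311 to 115587780 on the minus strand, Rgcc on chromosome 14 from 79288756 to 79301645, also on the minus strand, and both code for protein. Ifitm3 and its relative Ifitm2 lie 53598 bases apart on chromosome 7.

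To set shares of cells at 1 depth, each cell was thinned to 17000 UMIs. Lgr5 was then seen in 62.5% of stem-like cells (exact 95% interval 53.2 to 71.2) and 11.1% (8.80 to 13.7) of other cells, and before thinning in 82.5% and 16.8%. In the 61 cells of the Enterocyte-like cluster the share was 9.84% (3.70 to 20.2) at a median of 23772 UMIs per cell. Whether the share in other cells comes from free RNA or from cells that express Lgr5 was not tested and cannot be told from this share alone. The other cells include cells with up to 7 Lgr5 UMIs and 5 with a UMI among the 10 just outside the limit. The shares of Axin2 and Igfbp4 were 28.3% and 21.7% in other cells, and 16.4% (8.15 to 28.1) and 6.56% (1.82 to 15.9) in the Enterocyte-like cluster. These are genes of the score, and the choice took the highest cells out of the other cells, so their shares partly follow from it. The intervals count cells of 1 library and measure no spread between libraries. Rgcc was seen in 89.2% of stem-like, 10.0% of other and 8.20% of Enterocyte-like cluster cells. Lgr5 and Ascl2 were seen together in 31 stem-like cells and 5 other cells.

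Of 12143 genes with at least 10 UMIs, 368 (3.03%) were higher in stem-like cells and 1010 (8.32%) lower. Higher or lower means at least 1.5-fold with Poisson intervals that do not overlap, and the median log2 ratio of all these genes was -0.04. These are the shares to read list counts against. The cells were chosen on the same counts, so the list counts describe the choice and support nothing.

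Genes of the Lgr5 stem cell signature that the score did not use were higher or stood near the other cells. Of 26 measured members 12 were higher and 0 lower, with a median log2 ratio of 0.59. Cdca7, a DNA-binding protein of dividing cells, stood at 219 CPM (206 to 233) in stem-like cells and 79.6 CPM (76.1 to 83.2) in other cells. Clca3b, of the chloride channel accessory family, stood at 297 CPM (282 to 313) and 110.4 CPM (106 to 115). Both were seen in all 120 stem-like cells and in 530 and 549 other cells. Smoc2, a secreted matrix protein that marks Lgr5 cells, stood at 192 CPM (180.0 to 206) and 101 CPM (96.7 to 105), and Sox9, a transcription factor of the crypt base, at 106 CPM (96.5 to 116) and 51.5 CPM (48.7 to 54.4). Aqp4, a water channel, had 46.4 and 13.8 CPM, and Msi1, an RNA-binding protein of stem cells, 11.3 and 2.44 CPM. The other 6 were Rgmb, a BMP co-receptor (log2 ratio 1.42), Mex3a, an RNA-binding protein (1.32), the guidance receptor Ephb3 (1.23), Soat1, which esterifies cholesterol (0.88), Lrig1, a brake on EGF receptors (0.63), and Slc12a2, a chloride importer (0.63).

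Several textbook stem and crypt genes did not pass the limits. Prom1, a membrane glycoprotein, stood at 71.3 and 89.4 CPM, Cd44, the hyaluronan receptor, at 48.8 and 45.1 CPM, and Ephb2, a guidance receptor, at 52.7 and 59.9 CPM. Rnf43, one of the ligases that LGR5 acts on, stood at 30.7 and 23.1 CPM. Olfm4, a secreted marker of human and mouse crypt base cells, had 4 UMIs in the stem-like cells and 3 in the other cells, too few for a ratio. Olfm4 thus could not be compared at this depth.

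**Figure D1:**
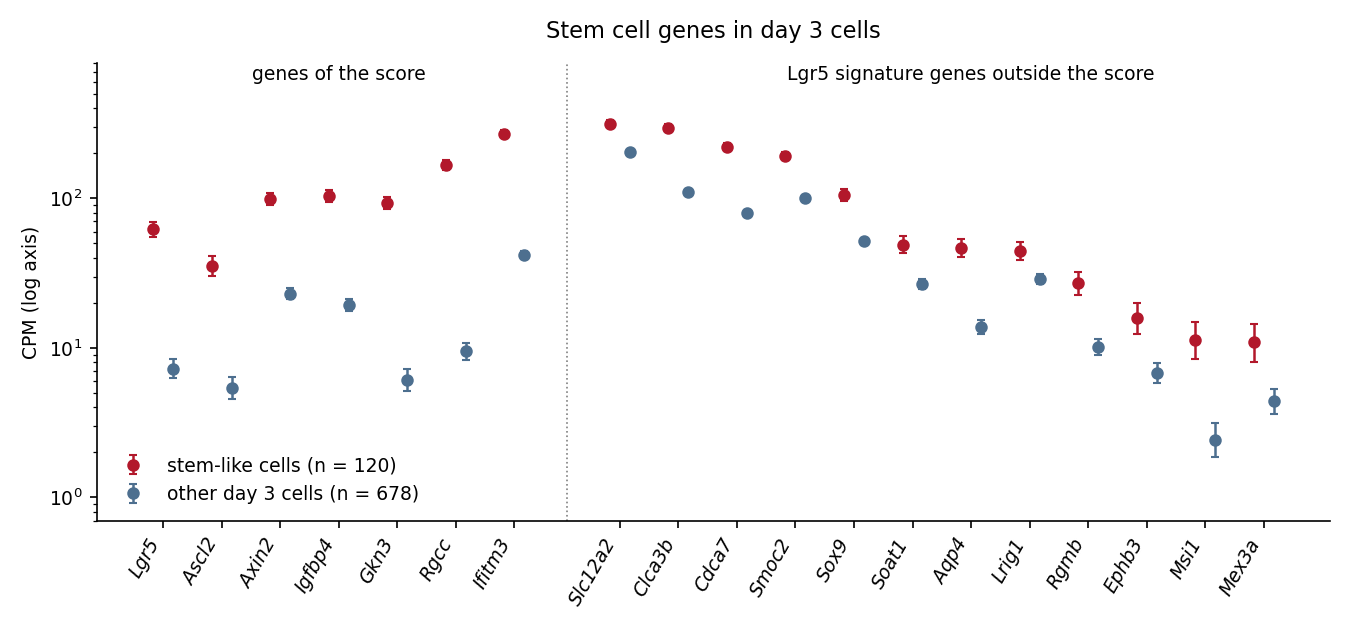
Counts per 1000000 UMIs (log axis) of the 7 genes that chose the cells and of the 12 higher Lgr5 signature genes, in stem-like cells (red) and other day 3 cells (blue), with Poisson 95% intervals for counting error. Every red point lies above its blue point, from 4.32-fold (Axin2) to 17.6-fold (Rgcc) among the genes that chose the cells and from 1.54-fold (Slc12a2) to 4.65-fold (Msi1) among the others.

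Wnt target genes were split. Of 13 measured members 5 were higher and 0 lower, with a median of 0.42. Sp5 (ENSMUSG00000075304), a transcription factor and direct Wnt target, had 45 UMIs in 29 stem-like cells and 25 UMIs in 23 of the other cells, or 9.81 CPM (7.15 to 13.1) and 1.03 CPM (0.669 to 1.53), which is 3.23 on the log2 scale. Nav1, a cytoskeletal protein (1.54), Tcf7, a TCF factor (1.43), Ephb3 and Sox9 were the other 4. Ccnd1, the cyclin that drives entry to the cell cycle, stood at 120.1 and 161 CPM, which did not pass. Among the 26 receptors and transducers of Wnt, Tcf7 was higher and Fzd5, a Wnt receptor, was lower at 40.3 and 63.4 CPM, and Lgr4 (41.2 and 47.0 CPM), Tcf7l2 (33.6 and 49.5 CPM) and Ctnnb1, which encodes beta-catenin (172 and 217 CPM), counted as neither.

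Other signals of the crypt were mixed. Of 12 measured genes on the Notch list, Lfng, which sugars Notch receptors (log2 ratio 1.15), and Hes6 (0.73) were higher. Whether Hes6 responds to Notch in these cells was not tested. The main response gene Hes1 stood at 132 CPM on the stem-like side and 133 CPM on the other. Dll1, a Notch ligand, had 9.37 and 9.06 CPM, and Jag1, another, was lower with 5.01 and 11.9 CPM. In the BMP pathway 2 of 17 genes were higher, the decoy receptor Bambi (1.94) and the ligand Bmp7 (1.44). In the EGF list 2 of 18 were higher, Lrig1 and the factor Etv4 (0.70), and 5 were lower, among them the ligand Areg with 14.8 and 83.3 CPM and the receptors Egfr (-0.77) and Erbb3 (-0.76). Of 13 Eph receptors and ephrins, which sort cells along the crypt, Ephb3 and Efna4 (1.43) were higher, and 4 were lower, with Efnb2 at 4.58 and 23.0 CPM and Epha2 at 15.3 and 41.4 CPM. Ifitm2, of the same family as Ifitm3, stood at 361 and 195 CPM and was seen in all stem-like cells and in 96.8% of other cells.

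The fetal-like list, of genes seen in regenerating gut, was mostly lower. Of 17 measured members 14 were lower and 0 higher, with a median of -1.72. Clu (ENSMUSG00000022037), which encodes clusterin, stood at 125 CPM (115 to 135) in stem-like cells and 412 CPM (404 to 420.4) in other cells. Ly6a, a surface protein also called Sca1, stood at 24.0 and 113 CPM, Msln, which encodes mesothelin, at 13.1 and 133 CPM, and Lgals3, which encodes a galectin, at 26.4 and 161 CPM. Clu was seen in 98 of the 120 stem-like cells, and both sides had a median of 2 UMIs per cell, so its gap lies in cells with many UMIs, up to 70 in a stem-like and 652 in an other cell. Of 19 YAP targets 9 were lower and 0 higher (median -0.91), led by Msln, F3, which encodes tissue factor (-2.96), Areg and Ankrd1 (-2.40). Ankrd1 rested on 3 UMIs in 3 stem-like cells and 97 UMIs in 16 other cells, 93.8% of the 97 in 10 cells. Taken as means of log2 values per cell, the median difference over the YAP list was -0.03, and over the fetal-like list -0.34. Msln, Anxa1 and Anxa3 stand on both lists. Yap1 itself had 28.8 and 33.9 CPM. Krt19, a keratin, was lower with 785 and 1706 CPM.

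Genes of absorptive cells were also lower. Of 22 measured members of the Enterocyte list 15 were lower and 0 higher (median -1.44). Fabp1, a fatty acid carrier, stood at 21.4 CPM (17.3 to 26.0) and 309 CPM (302 to 316), and Alpi, the intestinal alkaline phosphatase, at 2.40 and 28.4 CPM. When the Enterocyte-like cluster was taken out of the other cells, 11 of 21 were lower and the median was -0.90. By the ranking rule, with at least 50 CPM on the higher side and 10 UMIs on the lower, the 15 lowest genes also held Gsta1, a detoxifying enzyme (-2.81), St3gal4, which adds sialic acid (-2.77), Rbp2, a retinol carrier (-2.56), and Akr1b8 (-2.34), Tm4sf4 (-2.16), S100a14 (-2.13), Ahnak (-2.08), Emp1 (-2.05), Coro2a (-1.95) and Gstm3 (-1.91).

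Some genes of DNA synthesis were higher, and genes of mitosis counted as neither. Of 31 S phase genes 7 were higher and 0 lower (median 0.46), with Ung, which removes uracil from DNA, at 51.7 and 29.0 CPM. The count was 3 with the Enterocyte-like cluster taken out of the other cells, 11 with only members in Stem-like clusters and 21 with cells of the cycling clusters left out of both sides. That last setting kept 110 of the 120 members but 405 of the 678 other cells, so the sides lost cycling cells unequally. Cluster 7, a Stem-like cluster described below with many mitotic transcripts, stayed in. Of 30 G2 and mitosis genes 0 were higher and 0 lower (median 0.17), and Mki67, a marker of cycling cells, stood at 134 and 137 CPM. Inhibitors of the cycle were lower in 5 of 11 cases and higher in 0. Cdkn2b stood at 3.49 CPM in stem-like cells and 25.6 CPM in other cells, and Cdkn1a at 39.4 and 91.5 CPM. Of 14 genes of the p53 response, to which Cdkn1a belongs, 10 were lower and 0 higher (median -0.94). Of 23 genes of ribosome biogenesis Dkc1 alone was higher, with a median of 0.25 for the list. Igfbp7, which binds growth factors, had 0 UMIs in stem-like cells and 130 UMIs in 22 other cells, 31.5% of them in 1 cell. It was at least 8.22-fold lower against a floor of 3 UMIs over the group.

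**Figure D2:**
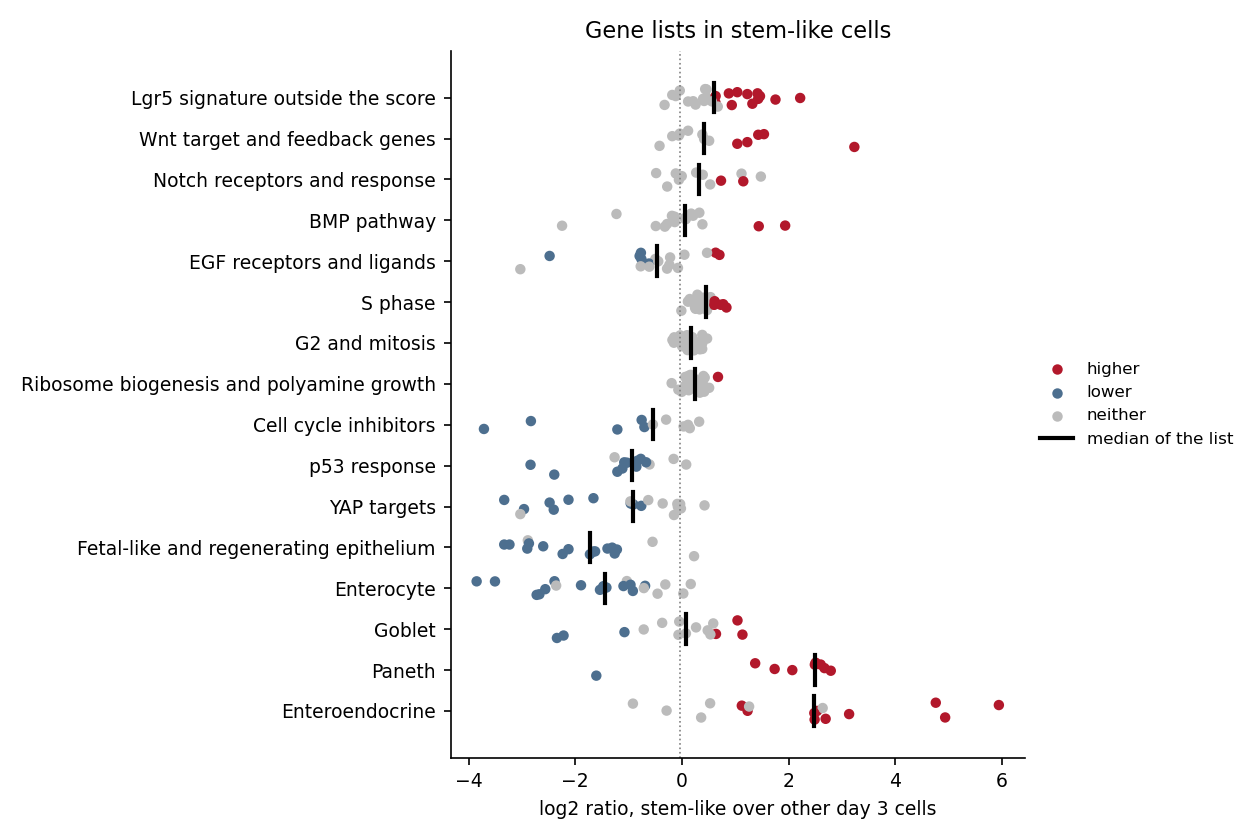
Log2 ratios of stem-like over other day 3 cells for the measured members of 16 gene lists, 1 point per gene, red for higher, blue for lower and grey for neither, with a black bar at each median and a dotted line at the median of all genes. The medians run from -1.72 for the fetal-like list to 2.49 for the Paneth list, with the S phase list at 0.46 and the mitosis list at 0.17.

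Along the score the Lgr5 signature fell in steps, and the fetal-like list had its widest step between bands at the limit of the choice. Summed over its genes, the Lgr5 signature stood at 2553, 2109 and 2103 CPM in the 3 successive sets of 40 stem-like cells, and at 1712, 1476 and 1272 CPM in the next 120, the next 160 and the remaining cells. Clca3b followed the same order, with 381, 273, 245, 165, 132 and 83.0 CPM. The fetal-like list stood at 1022, 1249 and 1468 CPM within the stem-like cells, and at 2854, 3925 and 3856 CPM beyond them. The band after the limit holds 120 cells and those inside it 40 each, so cells right at the limit were not compared. The Enterocyte list stood at 1069, 1129.5, 1311, 1451, 1871 and 3049 CPM over the 6 bands.

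**Figure D3:**
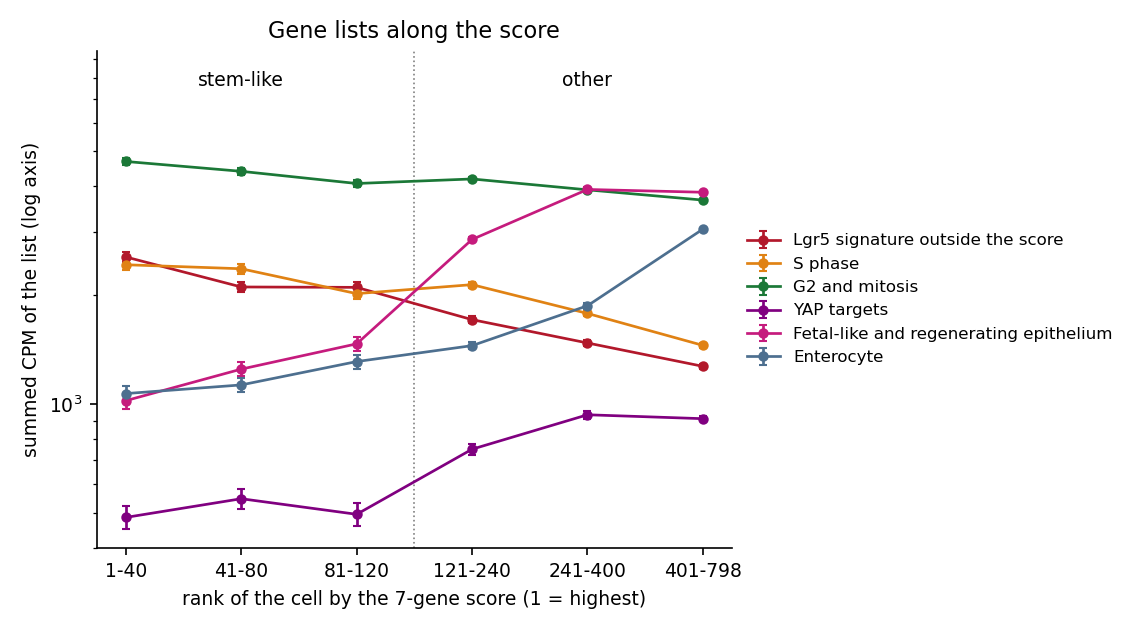
Summed counts per 1000000 UMIs of 6 gene lists (log axis) by rank of the cell on the 7-gene score, with 40 cells in each of the first 3 bands and Poisson 95% intervals. The stem-like cells lie left of the dotted line. The Lgr5 signature goes from 2553 CPM in the first band to 1272 CPM in the last, and the fetal-like list from 1022 to 3856 CPM.

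The stem-like cells were not 1 group. The day 3 cells fell into 13 clusters, and 91 of the 120 (75.8%) lay in clusters 3 and 7, which were led by genes of the score and are called Stem-like. The same genes chose the members, so this share describes the choice and supports nothing. Members made up 61.5% of the 148 cells of these clusters. Cluster 3 held 56 of them and cluster 7 held 35. The G2 and mitosis genes, which help set these clusters apart, summed to 2992 CPM in the members of cluster 3 and 6686 CPM in those of cluster 7, and the S phase genes to 2597 and 2027 CPM. The Lgr5 signature was alike in both, with 2299 CPM (2233 to 2365) and 2311 CPM (2229 to 2395). It stood at 1727 and 1683 CPM in the cells of these clusters outside the group, and at 1404 CPM in all other day 3 cells. The fetal-like list stood at 1175 and 1053 CPM in the members of clusters 3 and 7. In the 30 and 27 cells of these clusters outside the group it stood at 1254 and 1186 CPM. Another 17 members (14.2%) lay among the 53 cells of cluster 10, led by Paneth and goblet genes, and cluster 13, which is Enteroendocrine-like and holds 8 cells. These 17 had Lgr5 at 77.8 CPM, with a UMI in 15 of them, but Lgr5 helped to choose them. Their Lgr5 signature outside the score summed to 2155 CPM. They were deeper, with a median of 46215 UMIs per cell, against 29643 in the members of cluster 3, 34400 in those of cluster 7 and 28698 in the other 36 cells of the secretory clusters. Scrublet called 0 of the 120 cells doublets but only 2 cells of the library, so whether some of the 17 hold 2 cells was not tested. The other 12 were spread over clusters of cycling and unnamed cells.

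Secretory genes were high in those 17 cells and not in the other stem-like cells. Of 9 measured Paneth genes 8 were higher and 1 lower (median 2.49), and of 16 enteroendocrine genes 10 were higher and 0 lower (median 2.48). Goblet genes were split, with 3 of 15 higher and 3 lower, the mucin gene Muc2 being lower at 3.71 and 8.02 CPM. Defa24, an antimicrobial alpha-defensin of Paneth cells, stood at 1475 CPM (1441 to 1511) in stem-like cells and 213 CPM (207 to 219) in other cells, but at 56.2 CPM in the members of cluster 3, 54.0 CPM in those of cluster 7 and 8352 CPM in the 17. Its median was 2 UMIs per stem-like cell and 1 per other cell, and 29.7% of its UMIs on the stem-like side came from 1 cell. Alpha-defensin genes are near-identical copies, so reads may be split between them and their single values are uncertain. The Paneth list summed to 117 and 111 CPM in the members of clusters 3 and 7, and to 10606 CPM in the 17 cells, against 355 CPM in other day 3 cells. Among the latter, the 36 cells of clusters 10 and 13 had 4590 CPM. Their goblet list summed to 25175 CPM, against 11675 CPM in the 17. With only the members in Stem-like clusters, 0 of 9 Paneth genes were higher and 5 lower (median -1.64), against other cells that still held those 36. With the cells of clusters 10 and 13 left out on both sides the median was -0.07. The enteroendocrine median was then 0.03, and -0.78 with only the members in Stem-like clusters.

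The 15 highest genes outside the score included Cck, a hormone of enteroendocrine cells (log2 ratio 4.76), Defa24 (2.79), Defa17 (2.60), the hormone gene Ghrl (2.48), the protease gene Mmp7 (2.07), Reg4 (1.99), Itln1 (1.74), the lysozyme gene Lyz1 (1.37) and Spink4 (1.04), all genes of secretory cells. One cell gave 72.7% of the Cck UMIs of the stem-like side and 74.4% of those of Ghrl, and 1 cell gave 96.0% of those of Gcg. The other 6 were Cdca7, Clca3b, Marcksl1, an actin regulator (1.09), Cps1, an enzyme of the urea cycle (1.07), Sox9 and Stmn1, which destabilises microtubules (0.94). With the secretory clusters left out on both sides, the same rule gave Aqp4 first (1.90), then Clca3b (1.56) and Cdca7 (1.55), and 6 of its 15 genes had been among the first 15. Wnt3, the Wnt ligand that Paneth cells supply, had 11 UMIs in 5 stem-like cells, all in the 17, and 15 UMIs in 10 other cells. In the Lgr5 signature 11 of 26 genes were higher without the secretory clusters, with a median of 0.53.

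**Figure D4:**
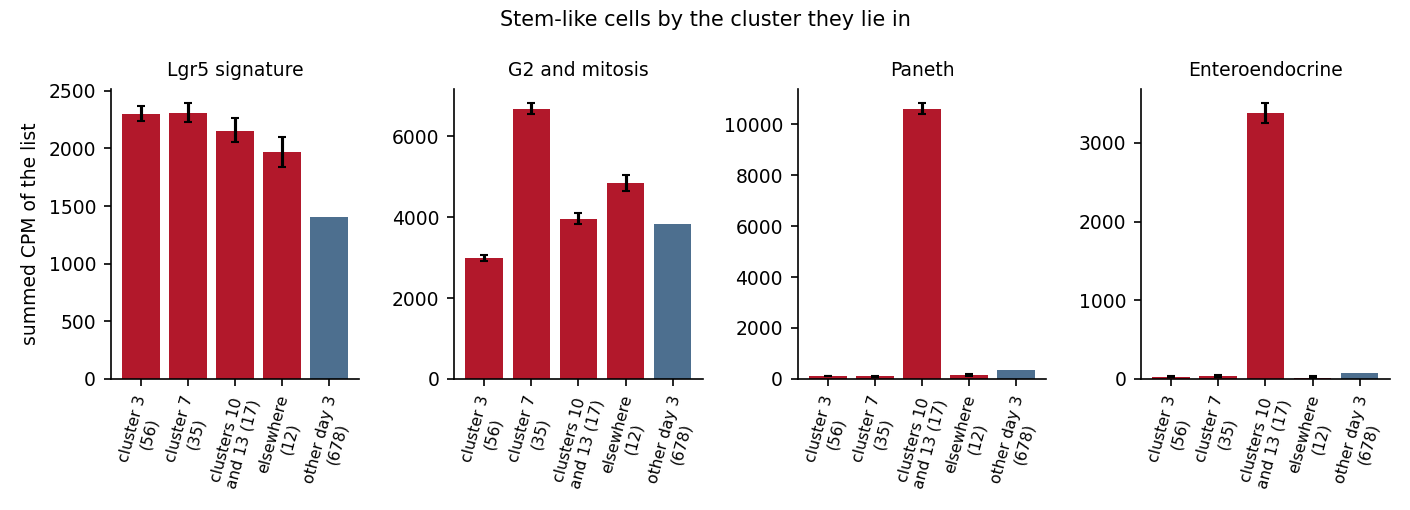
Summed counts per 1000000 UMIs of 4 gene lists in the stem-like cells of cluster 3 (56 cells), cluster 7 (35), clusters 10 and 13 (17) and elsewhere (12), in red with Poisson 95% intervals, and in the 678 other day 3 cells, in blue without intervals. Among the 4 sets of stem-like cells, the Paneth and enteroendocrine lists are high only in the 17 cells, with 10606 and 3379.7 CPM. The 36 other cells of clusters 10 and 13, which are pooled in blue, had 4590 and 825 CPM. The Lgr5 signature lies between 1968 and 2311 CPM in all 4 sets of stem-like cells.

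Immune and stromal markers were almost absent. Of 12 immune genes on the list 4 stood in the table and 1 had at least 10 UMIs, and the 2 measured stromal genes summed to 3.49 and 0.786 CPM, the larger value coming from Vim with 16 UMIs, 62.5% of them in 1 cell. Genes of immediate early response and dissociation stress, a sign of handling, were lower in 5 of 15 cases and higher in 0 (median -0.52), and their part in the other results was not tested.

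Cells chosen by other lists shared between 1 and 28 cells with this group, whose 120 cells are 15% of the library. The 120 day 3 cells highest for 7 mitotic genes shared 25 cells with it, or 20.8%, those highest for 8 secretory genes 28, or 23.3%, and those highest for 6 regenerating genes 1, or 0.833%. The first 2 shares lie above 15% and the last below it. Lgr5 stood at 61.9 CPM in the stem-like cells, 27.4 in the secretory, 2.66 in the regenerating and 18.0 in the cycling cells. Clu stood at 125, 208, 1675 and 201 CPM in the same order, and Cd44 at 48.8, 45.3, 118 and 39.7 CPM. These sets overlap and come from 1 library, so their differences were not tested.

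The same score was applied to the day 5 library. Its cells were chosen on the same counts that were then compared, so the list counts again describe the choice and support nothing. The 160 highest of 1065 cells, the same share, scored 0.665 to 2.31. The comparison with the other 905 cells called 1743 of 11536 genes higher (15.1%) and 1573 lower (13.6%), with a median log2 ratio of 0.11. Day 5 cells were shallower, with medians of 19833 UMIs on the high-score side and 12895 on the other. In this library 23 of 27 Lgr5 signature genes were higher and 1 lower (median 1.39), 11 of 13 Wnt targets were higher (1.52), 29 of 30 mitosis genes were higher (0.96) and all 24 Enterocyte genes were lower (-3.53). Smoc2 stood at 208 CPM (193 to 224) in high-score and 84.4 CPM (79.6 to 89.4) in other day 5 cells, Clca3b at 377 and 87.5 CPM, and Cdca7 at 143 and 31.4 CPM. Olfm4 had 11 UMIs in high-score cells and 1 in other day 5 cells. Of the 335 genes higher at day 3 outside the score and measured at both days, 197 (58.8%) were also higher at day 5, which is 11.4% of the 1723 higher there. Of 959 lower at day 3, 537 (56.0%) were lower at day 5, which is 35.4% of 1515, and 16 genes higher and 13 genes lower at day 3 were called the other way at day 5. Clu stood at 14.7 and 22.4 CPM at day 5, far below the 125 and 412 CPM of day 3, and Paneth genes were again higher, 10 of 11 (median 2.09), with Defa24 at 5573 and 992 CPM. A few cells held most of these UMIs, since 10 high-score cells gave 83.3% of those of Defa24 on their side and 10 other cells 87.8% on theirs. Values of Paneth genes at day 5 without secretory cells were not computed. Genes of the p53 response, lower at day 3, had 4 of 14 higher and 4 lower at day 5 (median 0.23). Enteroendocrine genes, higher at day 3, were lower in 7 of 14 cases and higher in 0 at day 5 (median -2.57), and Gcg had 98.6% of its UMIs among other day 5 cells in 1 cell.

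**Figure D5:**
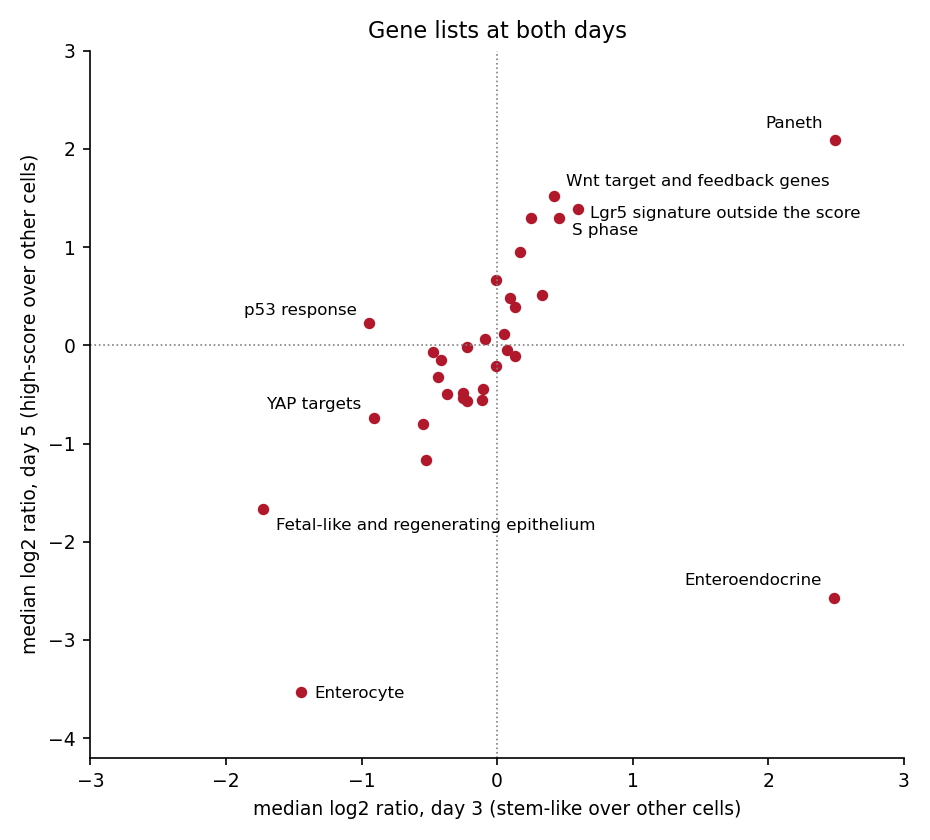
Median log2 ratio of each gene list with at least 5 measured genes, stem-like over other cells at day 3 (x axis) and high-score over other cells at day 5 (y axis), 1 point per list. The Lgr5 signature lies at 0.59 and 1.39 and the fetal-like list at -1.72 and -1.67, while the Enteroendocrine list lies at 2.48 and -2.57.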

How the data were processed

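Single cells of mouse intestinal organoids were measured at day 3 and day 5, with 1 library each. The authors deposited UMI counts for 15745 genes, made with Cell Ranger 1.3.0 on mm10 per the submitters' processing notes, and log2 values of the same table. From the values, each log2 value is the count over the cell's size factor, plus 1. The sources used here do not give the filters on cells. Symbols matched 15681 gene identifiers, and the libraries shared 0 cell names, though names are codes and shared barcodes could not be counted. The day 3 library held 28764033 UMIs (17601 to 119743 per cell) and the day 5 library 17349076 (6777 to 59638).

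The score, the members and the gene lists were chosen with earlier results of these data known. UMI counts were summed per side, 0.5 UMI was added to each sum for log2 ratios, and no test was run. Named genes were the score genes, the 15 highest and 15 lowest by the limits in the text, the 2 highest and 2 lowest of each list and fixed focal genes, with some of these not reported here. Prelp, Cttnbp2, Nrtn, Lgr4, Tcf7l2, Ctnnb1, further list members counted higher or lower, and the ranking without secretory clusters were chosen after values were seen. Day 3 cells were scaled to 10000 UMIs and clustered on 2000 variable genes, 30 components and 15 neighbours (Leiden, resolution 1) with scanpy 1.11.5 and igraph 0.11.9. Naming a cluster took 3 markers of a type among its first 25 genes. Scrublet called 2 cells, 0 of them members, so doublets cannot be taken as removed. Alternative scaling used TMM of edgeR 4.0.16. Counting intervals used scipy 1.17.1. Promoter windows and positions come from RefSeq (GRCm38.p6) and GENCODE M21.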

Additional observations from a re-analysis of the deposited data

Results flagged for a closer look

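Among all genes measured at both days, 16 were higher at day 3 and lower at day 5 and 13 the reverse. They include Cck, Gcg, Ghrl and Guca2a of secretory cells, and Egfr. The difference between days was not tested, since there is 1 library per day. Cck had log2 ratios of 4.76 at day 3 and -5.55 at day 5. Gcg, which encodes glucagon, had 4.93 and -6.53, Ghrl, which encodes ghrelin, had 2.48 and -2.65, and Guca2a, which encodes guanylin, had 1.13 and -2.59. Egfr, the EGF receptor, went the other way, with -0.77 and 1.14. With the cells of the secretory clusters left out on both sides at day 3, Cck stood at -0.48, Ghrl at -0.17, Guca2a at -1.62 and Gcg at 0.65. One cell gave 96.0% of the Gcg UMIs of the day 3 stem-like cells, and 1 cell gave 98.6% of those of the other day 5 cells.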

How the results depend on the processing

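The counts of genes differ by under 1.5 times under the alternatives run except at a 2-fold limit, where 182 were higher and 524 lower at day 3, and 840 and 1016 at day 5. Which genes were called changed more. Of the 368 higher and 1010 lower at day 3, 222 and 647 were called alike in sums of thinned cells. For the 60 highest cells it was 246 and 711, and without each gene's top cell 282 and 998. With only members in Stem-like clusters it was 273 and 871, and 12 of the 368 were called lower. TMM scaling moved ratios by 0.02 at day 3 and -0.14 at day 5. Between 103 and 115 of the 120 members were kept when the score was thinned, scaled or lost 1 gene. The counts could not be formed from mean log2 values, where only signs were read. No paired analysis was possible because each day has 1 library and the groups share fewer than 2 replicate numbers.

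Median log2 ratios moved as follows, and the cause was not tested. The setting without cycling clusters kept 110 of the 120 members but 405 of the 678 other cells, so it changed the 2 sides unequally. Wnt targets stood at 1.04 with no minimum of UMIs, the fetal-like list at -0.71 for the 240 highest cells and -2.25 without cycling clusters, p53 genes at -0.44 for the 240, S phase at 0.67 without cycling clusters, mitosis at 0.32 for the 60 highest cells and Enterocyte genes at -0.90 without the Enterocyte-like cluster. The Paneth median was 1.81 for the 60, 2.12 with the thinned score, 1.61 with the scaled score, 1.68, 2.90, 2.30, 3.36 and 1.67 without Lgr5, Ascl2, Axin2, Igfbp4 and Rgcc in the score, 2.22 in thinned sums, 2.10 without each gene's top cell and 1.89 without cycling clusters. It was -0.066 without secretory clusters and -1.64 with only members in Stem-like clusters. The Enteroendocrine median was -0.50 for the 60, 1.72 for the 240, 0.55 with the thinned score, 0.44, 0.48, 1.06 and 0.51 without Lgr5, Ascl2, Igfbp4 and Ifitm3, 1.40 in thinned sums, 0.91 without the top cell, 0.027 without secretory clusters and -0.78 with only members in Stem-like clusters.

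With only members in Stem-like clusters, Cck stood at -0.45, Defa24 at -1.94, Defa17 at -1.64, Defa3 at -2.22, Ghrl at -2.38, Guca2a at -3.53, Itln1 at -0.47, Lyz1 at -1.80, Mmp7 at -1.76, Reg4 at -2.14, Spink4 at -2.79 and Wnt3 at -2.10. Without secretory clusters, Cck stood at -0.48, Defa17 at -0.24, Ghrl at -0.17, Guca2a at -1.62, Mmp7 at -0.066, Reg4 at -0.093 and Spink4 at -0.37. For the 60 highest cells, Cck stood at -3.26, Gcg at -2.26 and Ghrl at -2.95. Gcg was -2.41 with the thinned score and -2.33, -2.17 and -2.46 without Lgr5, Ascl2 and Ifitm3, and Ghrl -0.25 without Igfbp4.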

Other observations

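Prelp, a matrix protein, led cluster 3 and was picked after the clusters were seen. It had 48 UMIs in 37 stem-like cells and 15 UMIs in 15 other day 3 cells, or 10.5 CPM (7.71 to 13.9) and 0.620 CPM (0.347 to 1.02). At day 5 it had 13.3 CPM (9.78 to 17.7) in high-score cells and 0.579 CPM in the others, which had 8 UMIs. Cttnbp2 had log2 ratios of 2.28 and 1.81 and Nrtn, a ligand of the GDNF family, 1.67 and 1.16 at day 3 and day 5.

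In ion transport of the crypt, 3 of 14 measured genes were higher at day 3, the water channels Aqp1 (log2 ratio 1.29) and Aqp4 and the importer Slc12a2, and 2 were lower, the exchanger Slc26a6 (-2.46) and the channel Ano1 (-1.90). Of 19 low-oxygen genes 4 were lower and 0 higher, among them Ndrg1 (-1.33) and Ero1l (-1.20).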
